A study of Mus musculus with 2 samples.

Results

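The 36 genes described here encode aminoacyl-tRNA synthetases, 20 of them enzymes or enzyme subunits of the cytosol and 16 enzymes of the mitochondrion. They were chosen by gene symbol, with no measured value as a criterion but with earlier results of these data known. All 36 were found among the 43346 annotated genes of the tables. Expression was measured by total RNA-seq in megakaryocyte-erythroid progenitors (MEP), marrow cells that give rise to red cells and to the megakaryocytes that shed platelets. The cells were primary, from adult C57BL/6J males aged 5 to 6 weeks, with no treatment or genetic change given in the labels. There were 2 libraries of 100 cells each, numbered as biological replicates 1 and 2, with separate biosamples but the same donor record, so the spread between them may be technical. All values describe 1 cell population, and no comparison of conditions was possible. In such bulk samples, fewer cells of a type and less RNA per cell cannot be told apart.

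An aminoacyl-tRNA synthetase joins an amino acid to the tRNAs that read its codons, and so sets which amino acid a codon is translated into. The enzymes fall into class I and class II, which have unrelated catalytic folds and attach the amino acid to different hydroxyl groups of the tRNA's last ribose. In animals the cytosol and the mitochondrion mostly use enzymes from separate nuclear genes, but Gars and Kars serve both compartments, and mitochondria make glutaminyl-tRNA by amidation without a glutaminyl-tRNA synthetase of their own. Several cytosolic enzymes are held with scaffold proteins in the multisynthetase complex. When amino acids are short, or in red cell precursors when heme is short, the kinases encoded by Eif2ak4 and Eif2ak1 raise translation of the transcription factor ATF4, whose targets include cytosolic synthetase genes and Asns.

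The promoters of the family were searched for TGATGNAA, the core of the composite element that ATF4 binds with C/EBP partners, on both strands. RefSeq windows (GRCm38.p6) of 300 bases, 250 before and 50 after a gene's start, were matched by symbol for 27 of the 36 members, 13 cytosolic and 14 mitochondrial. Cars, Hars, Lars, Nars, Rars, Vars, Wars, Hars2 and Pars2 were not matched. The motif was present in 5 members, Aars, Gars, Iars, Tars and Yars, all of them cytosolic, and in 0 of the 14 mitochondrial promoters. These 5 are 18.5% of the matched members, while 4.51% of all 27025 genes with a window, and 3.97% of all 32851 windows, hold the motif. No other motif was searched, so no overlap with another motif arose. The 6 stretches that carry it are given 5′ to 3′ on the strand of the gene, with the motif in capitals. In Yars it reads as written and in the other stretches as its reverse complement.

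Aars, upstream (chr8:111033690-111033762, + strand): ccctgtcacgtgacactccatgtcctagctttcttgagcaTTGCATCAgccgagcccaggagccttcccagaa
Aars, at the start (chr8:111033811-111033871, + strand): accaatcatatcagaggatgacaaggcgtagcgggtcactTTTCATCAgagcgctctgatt
Gars (chr6:55037931-55038003, + strand): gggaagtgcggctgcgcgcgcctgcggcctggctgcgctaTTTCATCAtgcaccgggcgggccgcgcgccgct
Iars (chr13:49682097-49682159, + strand): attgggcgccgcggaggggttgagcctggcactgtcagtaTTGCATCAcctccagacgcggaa
Tars (chr15:11399641-11399713, - strand): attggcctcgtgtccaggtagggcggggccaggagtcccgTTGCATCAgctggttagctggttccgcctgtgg
Yars (chr4:129189866-129189932, + strand): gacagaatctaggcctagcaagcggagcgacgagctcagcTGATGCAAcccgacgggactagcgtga

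In Gars and Tars the motif lies just before the annotated start, and in Iars and Yars just after it. A match is a description of letters in a window. The 5 cytosolic genes with the motif had a median of 24.8 TPM (a share of all transcripts in a library, corrected for length). The 8 matched cytosolic genes without the motif had a median of 58.5 TPM. The order depended on the scale. With protein-coding transcripts only, Tars was the middle of the 5 at 24.8 TPM, and Farsa and Qars of the 8 lay below it. Dars, Eprs, Farsb, Kars, Mars1 and Sars lay above it. Without length correction, Aars was the middle of the 5 at 80.9 CPM (counts scaled to library size). Farsa, Farsb, Mars1 and Sars lay below it, and Dars, Eprs, Kars and Qars above it. The difference between these sets was not tested.

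The libraries held 30016974 and 51510347 expected counts in replicates 1 and 2, and protein-coding nuclear genes took 13518448 and 25799923 of these. All 7 MEP markers, among them the erythroid regulators Gata1 and Klf1, stood at 10 TPM or more in both libraries, and the stem and other progenitor markers Cd34, Fcgr3, Ly6a and Il7r at 2.63 TPM or less. The 7 neutrophil and monocyte markers summed to 1861 TPM in replicate 1 but to 6.39 TPM in replicate 2, where Ngp, Lcn2, Mpo and Elane were at 0. The 4 B cell markers summed to 2.72 TPM in replicate 1, where Vpreb1 was at 0, and to 101 TPM in replicate 2. The part of these cell types in the synthetase values was not tested. A single T and NK cell marker, Nkg7, reached 10 TPM in both libraries.

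Lars2, the mitochondrial leucyl-tRNA synthetase, stood far apart from the rest of the family, and its count is doubtful as a measure of synthetase mRNA. It had 738044 and 590576 expected counts in replicates 1 and 2, which were 5.46% and 2.29% of all counts on protein-coding nuclear genes. The other 35 members together held 54940 and 108256 counts, or 0.406% and 0.420%. Lars2 (ENSMUSG00000035202.7, mm10 chr9:123366927-123462666, + strand) thus reached 8969.8 and 4116 TPM in replicates 1 and 2, against 20.7 and 31.1 TPM for Tars2, the mitochondrial gene with the highest mean after it. It has a single transcript in the annotation, of 3894 bases, of which the last 986 form the 3′ UTR, so the tables give no way to divide its counts within the gene. For this reason group values are given with and without Lars2.

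The 3′ UTR of Lars2 shares short stretches with other transcripts. A run of 97 bases matched the transcript AA474408 at 94.8% identity, a second run of 50 bases matched it at 96.0%, and 72 bases matched the antisense transcript Gm15564 at 98.6%. AA474408 stood at 1.17 and 1.31 TPM and Gm15564 at 1.54 and 0 TPM, in replicates 1 and 2. No alignment at an E-value of 1e-05 or lower joined any of 99 coding transcripts of the family to the 359 annotated ribosomal RNA or ribosomal RNA-like transcripts. Ribosomal RNA was abundant in both libraries: Gm42418, which overlaps an 18S ribosomal RNA pseudogene, was at 284070 and 238845 TPM, and the mitochondrial ribosomal RNA mt-Rnr2 at 98163 and 97304 TPM. A 28S ribosomal RNA sequence was not used here, and the part of ribosomal RNA in the Lars2 count was not tested. The 50-base stretch is printed from AA474408, with capitals at the 2 bases that differ from Lars2, so that it can be set against other RNAs.

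AA474408 (GRCm38 chr7:110059779-110059828, - strand): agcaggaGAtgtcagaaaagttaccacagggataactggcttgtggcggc

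Every cytosolic synthetase gene was well expressed in MEP, while the mitochondrial genes were lower and reached from low to moderate levels. The median of the 20 cytosolic genes was 47.9 and 49.3 TPM across the 2 libraries. The 16 mitochondrial genes had medians of 10.6 and 14.1 TPM, and without Lars2 the 15 others had 10.1 and 13.5 TPM. The ratio of the cytosolic to the mitochondrial median was 4.51 in replicate 1 and 3.51 in replicate 2, or 4.76 and 3.66 without Lars2. Of the 36 members, 29 reached 10 TPM in both libraries, or 28 of 35 without Lars2, beside 24.7% of all 21461 protein-coding nuclear genes. They comprised all 20 cytosolic genes and 9 mitochondrial genes, Lars2 among them.

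**Figure D1:**
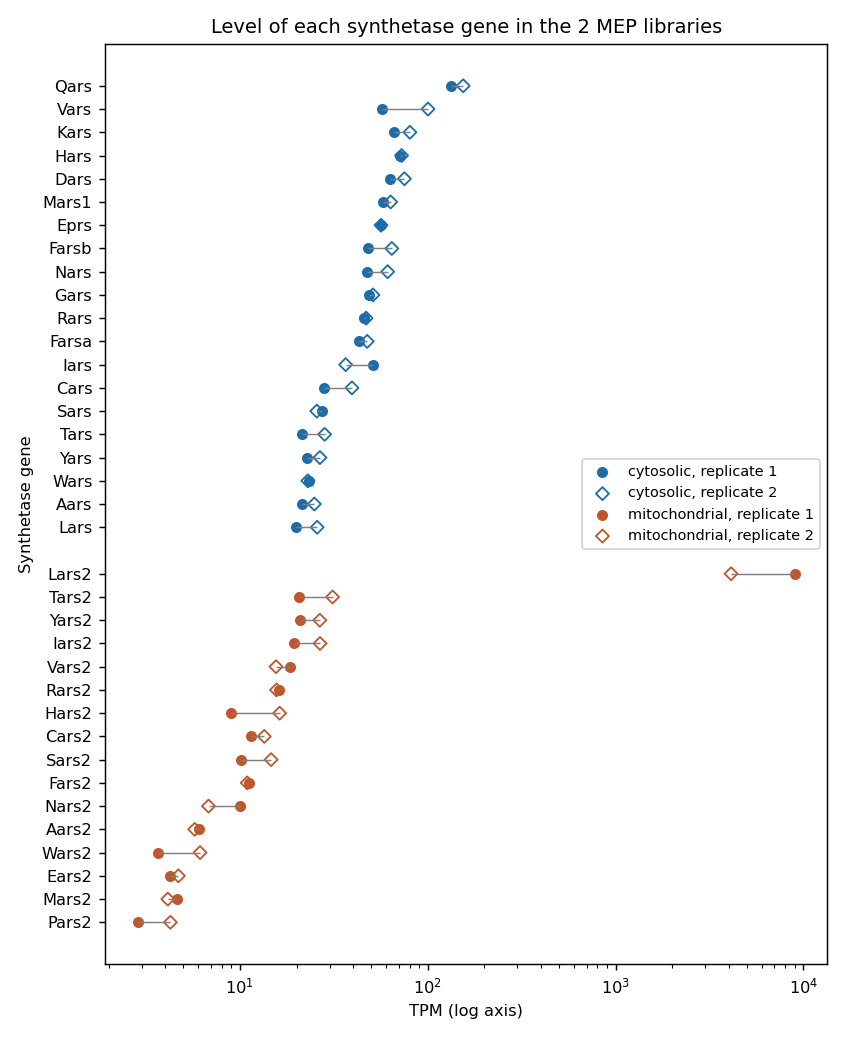
TPM of each synthetase gene on a log axis in replicate 1 (filled circles) and replicate 2 (open diamonds), with cytosolic genes above mitochondrial genes and each set ordered by mean. Cytosolic genes lie between 19.9 and 154 TPM, and mitochondrial genes other than Lars2 between 2.86 and 31.1 TPM.

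The 2 sets overlapped at their edges. In replicate 1, 19 of 20 cytosolic genes lay above the highest mitochondrial gene other than Lars2, and in replicate 2, 14 did. The lowest cytosolic mean, 22.8 ± 4.12 TPM (SD, n = 2) for the leucyl enzyme Lars, lay above 85.4% of protein-coding nuclear genes, and the lowest mitochondrial mean, 3.56 ± 0.990 TPM (SD, n = 2) for the prolyl enzyme Pars2, above 61.1%. Other parts of the translation apparatus were higher than the synthetases of the same compartment. Medians were 1326 and 1508 TPM for the 84 cytosolic ribosomal protein genes, and 17 initiation and elongation factor genes had 130 and 134 TPM. For the 77 mitochondrial ribosomal protein genes they were 33.0 and 42.5 TPM. The differences between these lists were not tested.

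Genes of the multisynthetase complex spanned most of the cytosolic range. The median of its 8 synthetases was 57.1 TPM in the replicate 1 library and 59.9 TPM in the other, and that of the 12 cytosolic genes outside it 35.6 and 43.5 TPM, with ranges that overlapped widely. Qars, the glutaminyl enzyme (ENSMUSG00000032604.10, chr9:108507706-108515941, + strand), was the highest cytosolic gene on the gene-level TPM scale, at 133 and 154 TPM. Its protein-coding transcripts averaged 17.2 TPM, the lowest value of the 20 cytosolic genes on that scale, or 32.6 TPM with a transcript of unknown type added. Kars, the lysyl enzyme of both compartments, had 66.5 and 80.3 TPM, and Dars, the aspartyl enzyme, had 62.9 and 75.1 TPM. Mars1, the methionyl enzyme, listed as Mars in the annotation, had 57.8 and 63.4 TPM. Eprs, which charges both glutamate and proline from a single protein, was nearly the same in both libraries at 56.5 and 56.4 TPM. Rars, the arginyl enzyme, had 46.0 and 47.0 TPM. The isoleucyl enzyme Iars had 51.3 TPM in replicate 1 but 36.5 TPM in replicate 2, and Lars, the lowest complex member, had 19.9 and 25.8 TPM.

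The complex is built on 3 scaffold proteins that charge no tRNA, and their genes lay in the same range as its enzymes. Aimp1 had 41.9 and 53.0 TPM, Aimp2 had 33.8 and 52.2 TPM, and Eef1e1, which encodes AIMP3, had 46.1 and 61.4 TPM. In TPM all 3 were higher in replicate 2 than in replicate 1, as were 6 of the 8 complex synthetases. The same held for 67.3% of protein-coding nuclear genes with a mean of at least 1 TPM. When counts were scaled by TMM factors, Eprs, Iars, Mars1 and Rars were higher in replicate 1.

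Outside the complex, gene-level TPM ranged from 21.4 to 100.3 in single libraries. Vars, the valyl enzyme, had 56.8 and 100.3 TPM in replicates 1 and 2, the widest spread of any cytosolic gene. Hars, the histidyl enzyme, had 70.8 and 72.5 TPM, and Nars, the asparaginyl enzyme, had 47.7 and 61.1 TPM. Farsa and Farsb encode the 2 kinds of subunit of the phenylalanyl enzyme, which is built from equal numbers of each. Farsa had 43.3 and 47.6 TPM, and Farsb 48.2 and 64.3 TPM. Gars, the glycyl enzyme of both compartments, had 48.7 and 51.0 TPM. The others on this scale, Cars, Sars, Tars, Yars, Wars and Aars, for cysteine, serine, threonine, tyrosine, tryptophan and alanine, had means between 23.1 TPM for Aars and 33.7 TPM for Cars. Neighbours among these 6 differed by no more than the spread between libraries. The order changed with the scale: protein-coding transcripts of Farsa averaged 21.6 TPM, below 26.4 TPM for Sars, and without length correction Aars averaged 80.9 CPM (counts scaled to library size), above 56.8 CPM for Farsa.

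The classes overlapped in level in both compartments. With Eprs left out, since its protein has a domain of each class, the 9 cytosolic class I genes had medians of 46.0 and 39.5 TPM, and the 10 class II genes 47.9 and 56.1 TPM. Among mitochondrial genes without Lars2, the 8 of class I had medians of 13.8 and 14.5 TPM and the 7 of class II had 10.01 and 10.9 TPM. The differences between classes were not tested.

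Among the mitochondrial genes, the threonyl, tyrosyl and isoleucyl enzymes led after Lars2 on gene-level TPM. Tars2 had 20.7 and 31.1 TPM in replicates 1 and 2, Yars2 had 21.0 and 26.6 TPM, and Iars2 had 19.3 and 26.7 TPM. A middle set held Vars2, Rars2, Hars2, Cars2, Sars2 and Fars2, for valine, arginine, histidine, cysteine, serine and phenylalanine, with means between 11.05 TPM for Fars2 and 17.0 TPM for Vars2. Nars2, for asparagine, had 10.01 and 6.80 TPM. On this gene-level scale the lowest were Aars2, Wars2, Ears2, Mars2 and Pars2, for alanine, tryptophan, glutamate, methionine and proline, with means between 3.56 and 5.90 TPM. Pars2 (ENSMUSG00000043572.7, chr4:106651069-106655282, + strand) rested on 123 and 333 expected counts, the smallest of the family.

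Genes that complete charging in mitochondria stood at similar levels. The amidotransferase that makes mitochondrial glutaminyl-tRNA is encoded by Gatb at 5.26 and 4.26 TPM, Gatc at 12.9 and 19.4 TPM, and Qrsl1 at 6.09 and 14.4 TPM. Mtfmt, which formylates the methionyl-tRNA that starts mitochondrial translation, had 8.38 and 8.52 TPM. Qrsl1 alone among these 4 genes was past 2-fold between libraries, beside 7.58% of protein-coding nuclear genes with a mean of at least 1 TPM. The median of their means was 9.36 TPM.

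Set side by side for the same amino acid, the cytosolic gene was higher in both libraries for 14 of 16 amino acids. The exceptions were leucine, where Lars2 is the doubtful count, and threonine, where Tars had 21.4 and 28.2 TPM and Tars2 20.7 and 31.1 TPM. For tyrosine the ratio of Yars to Yars2 was 1.08 in replicate 1 and 1.00 in replicate 2, so that pair differed by less than the spread between libraries. The cytosolic gene was more than 2 times the mitochondrial gene in both libraries for 11 amino acids. Without leucine the median ratio was 3.53 in replicate 1 and 4.33 in replicate 2.

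On gene-level TPM, the widest gaps belonged to the amino acids of the bifunctional Eprs and to methionine. Eprs was 19.7 and 13.2 times Pars2 in replicates 1 and 2, and 13.3 and 12.0 times Ears2, and these 2 ratios share the numerator. Mars1 was 12.5 and 15.4 times Mars2. Mars2 had an effective length of 11158 bases in replicate 1, against 1178 bases for Mars1, so its low TPM goes with 1131 expected counts, against 1496 for Mars1. Mars-203, a transcript of 621 bases, held 39.85% and 43.3% of the Mars1 TPM. With protein-coding transcripts only, Mars1 had 36.9 and 39.9 TPM against 4.61 and 4.13 TPM for Mars2. Mars-203 is annotated as protein-coding and held 23.0 and 27.5 TPM of these Mars1 values. The longer Mars-201, of 2939 bases, had 13.9 and 12.4 TPM. The valine pair was further apart with protein-coding transcripts only, with Vars at 20.4 and 43.5 TPM against 2.12 and 0.9 TPM for Vars2. Isoleucine showed a gene-level ratio that moved with the library, at 2.66 in replicate 1 and 1.37 in replicate 2. Iars2-204, annotated as a processed transcript, held 5.49% and 39.7% of the Iars2 TPM in these libraries. Protein-coding transcripts alone had 48.7 and 34.35 TPM for Iars and 16.2 and 14.15 TPM for Iars2.

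**Figure D2:**
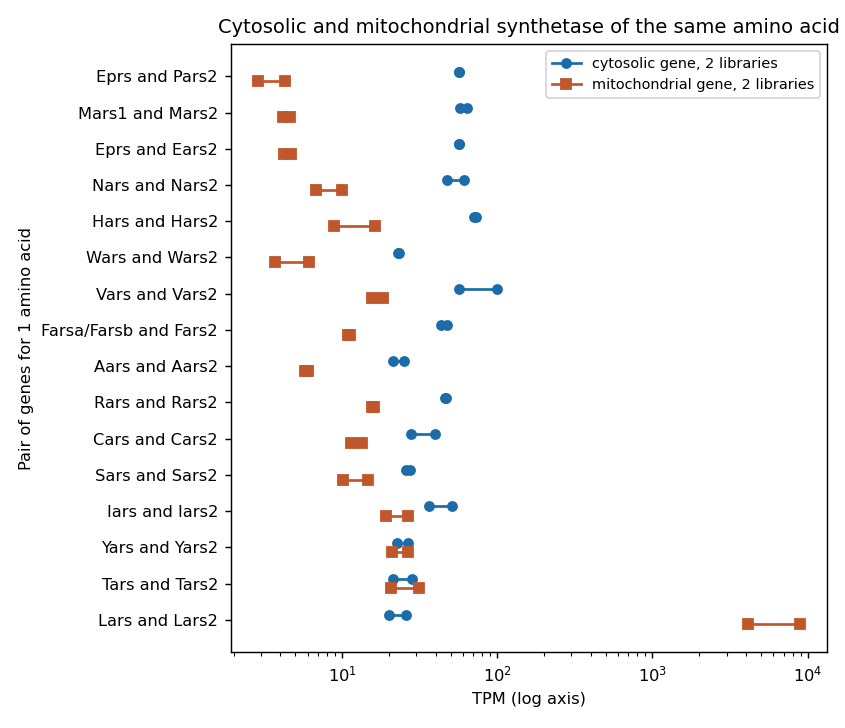
TPM on a log axis of the cytosolic gene (circles) and the mitochondrial gene (squares) for each shared amino acid, with 1 point per library joined by a line and pairs ordered by the ratio of means; for phenylalanine the lower of Farsa and Farsb is drawn. Within each library, cytosolic points lie to the right for 14 of 16 pairs. The lines of Tars and Tars2 overlap in range, as do those of Yars and Yars2, and Lars2 lies far to the right of Lars.

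The shift of the family between the libraries was close to that of other genes. The difference of log2(TPM + 1), replicate 1 minus replicate 2, had a median of -0.21 over the 36 members and of -0.18 over the 9982 protein-coding nuclear genes with a mean of at least 1 TPM. In all, 25 of 36 members were lower in replicate 1, beside 67.3% of those genes. The median of the members became -0.03 when TPM were rescaled over protein-coding nuclear genes, against -0.01 for all genes, and it turned to 0.03 when counts were scaled by TMM or DESeq2 factors, against -0.01. Relative to all genes, the members' median lay between -0.03 and 0.04 on these scales. The order of levels was kept between libraries, with a Spearman rho of 0.96 across the 36 members, 0.95 without Lars2 and 0.95 across the 9982 genes; this is a description across genes, which share their library.

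Lars2 was the only member past a 2-fold difference, at 2.18 times in replicate 1 over replicate 2 on the TPM scale, while 7.58% of the 9982 genes were past it. The exact interval from its counts was 2.17 to 2.19 at 95%, which covers counting error only. Of the ribosomal RNA-like transcripts, Gm42418 was also higher in replicate 1, at 284070 TPM against 238845 TPM in replicate 2, and Gm26917 was lower, at 3341 TPM against 4813 TPM. The cause of the Lars2 difference was not tested.

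Of the remaining members, Vars and Hars2 differed most. Vars (ENSMUSG00000007029.12, chr17:35000987-35016322, + strand) had 3237 and 8192 expected counts and a log2 difference of -0.81, and Hars2 had 8.92 and 16.3 TPM, a log2 difference of -0.80. Wars2, at 3.68 and 6.13 TPM, and Tars2 followed with -0.61 and -0.56. In the other direction, Nars2 and Iars were higher in replicate 1, by 0.50 and 0.48. For Hars2 the effective length also moved, from the estimated mix of transcripts, and was 2782 bases in replicate 1 and 1601 bases in replicate 2; scaled by TMM without length correction, Hars2 had 19.5 CPM in replicate 1 and 18.2 CPM in replicate 2. Nars2 was likewise at 17.6 and 17.2 CPM and Wars2 at 12.4 and 13.2 CPM, so the libraries lay closer together for these 3 genes in counts scaled this way. Vars was at 116 and 148 CPM.

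**Figure D3:**
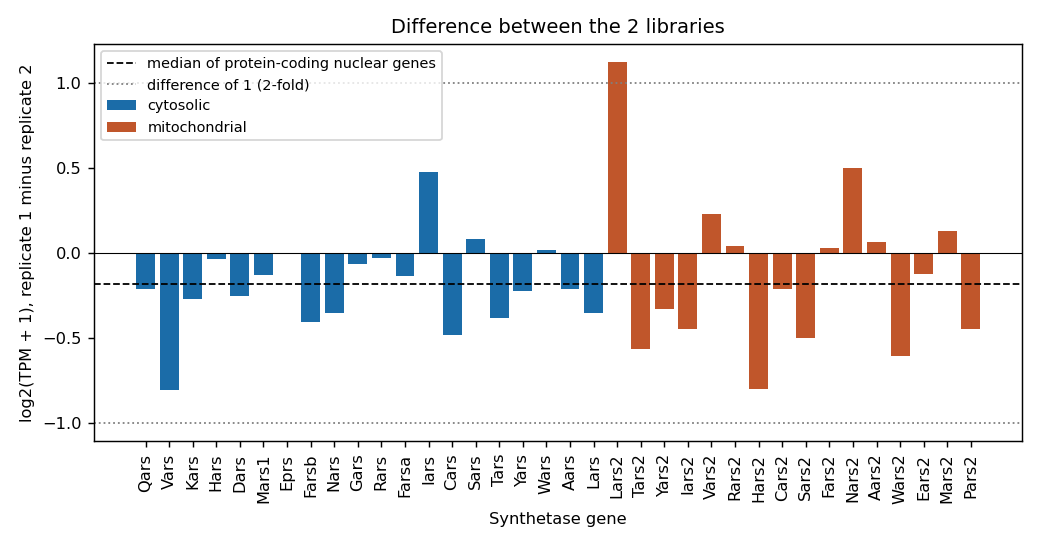
Difference in log2(TPM + 1), replicate 1 minus replicate 2, for each gene, cytosolic genes left of mitochondrial genes; the dashed line is the median of 9982 protein-coding nuclear genes (-0.18) and dotted lines mark differences of 1. Only Lars2 passes a dotted line, at 1.12, and 25 of 36 bars point down; TMM or DESeq2 factors move the members' median to 0.03.

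The transcripts assigned to the genes changed how several levels can be read. The family had 183 annotated transcripts, and 10 members had a single transcript. In 19 members more than 90% of the TPM was assigned to protein-coding transcripts in both libraries. In 4 members less than 50% was, namely Qars, Vars, Ears2 and Vars2. Of 23 members with several transcripts and a mean of at least 5 TPM, 20 had the same leading transcript in both libraries, and in 19 the lead was protein-coding in both.

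Qars was the clearest case. Its coding transcripts held 10.4% of its TPM in replicate 1 and 13.3% in replicate 2, and transcripts annotated with a retained intron held 61.6% and 63.2%. Its leading transcript was Qars-205, a retained-intron form, at 19.1% and 22.8%. Another retained-intron transcript counted under Qars, at 12.95 and 8.94 TPM, is named Qrich1-208 in the annotation used. It held 9.73% and 5.79% of the TPM and is included in the gene-level value and the retained-intron share. Limited to protein-coding transcripts, Qars averaged 17.2 TPM, and its gene value was 8.37 times that; it stood 23rd of the 36 in place of 2nd. A further Qars transcript, the only 1 of the family's 183 with no match in the annotation used, held 12.6% and 9.09% of the TPM, and its type is not known here. Counted as protein-coding, it would bring the coding share to 23.0% and 22.4%, the coding average to 32.6 TPM and the rank to 11th. The effective length of the gene was 908 bases in replicate 1. Without length correction Qars had 95.1 and 97.4 CPM, beside 98.4 and 105 CPM for Dars. Qars was the highest cytosolic gene neither on the coding scale, with or without the unmatched transcript, nor in CPM, where Eprs averaged 189.

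Vars followed the same pattern, with 64.1% and 56.7% of its TPM on retained-intron transcripts. Its protein-coding transcripts had 20.4 and 43.5 TPM, past 2-fold between libraries. Of the replicate 2 value, 17.9 TPM lay on Vars-207, a transcript of 388 bases at 0 in replicate 1. The longest coding transcript, Vars-201, of 4137 bases, had 12.8 and 21.9 TPM. Vars2 had 11.5% and 5.78% of its TPM on protein-coding transcripts, and those averaged 1.51 TPM. Ears2 had 74.1% and 84.5% on retained-intron transcripts and a coding average of 0.915 TPM, the lowest of the family. In Farsb, 41.0% and 43.8% lay on transcripts annotated for nonsense-mediated decay, and in Farsa 31.3% and 22.4%. Total RNA can hold unspliced RNA, and its part in these shares was not tested.

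**Figure D4:**
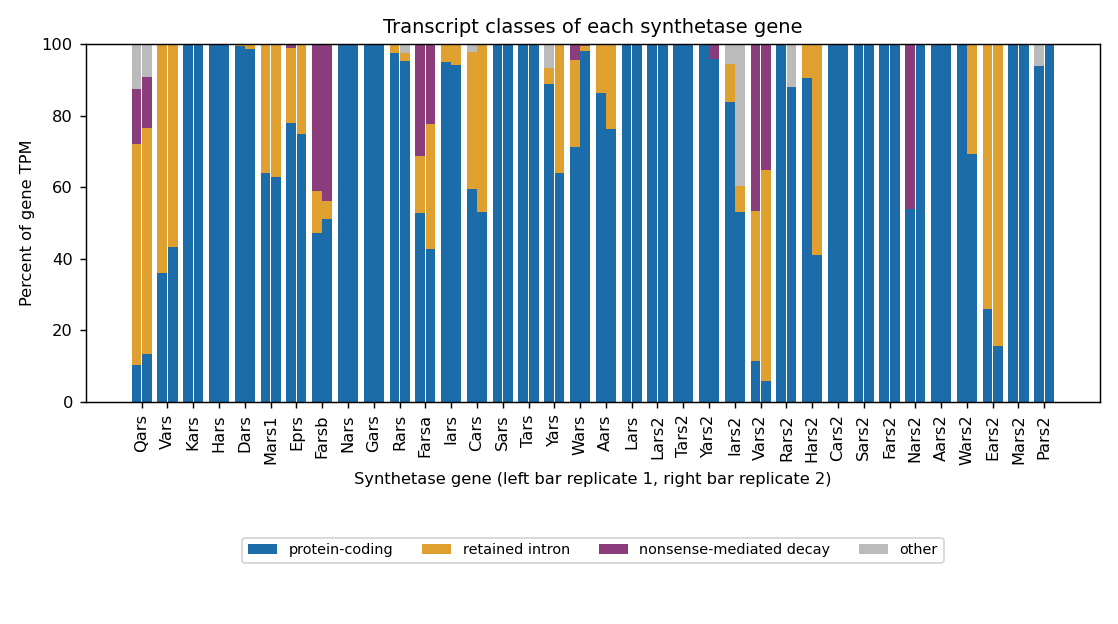
Percent of each gene's TPM on transcripts annotated as protein-coding, retained intron, nonsense-mediated decay or other (the unmatched Qars transcript included), for replicate 1 (left bar) and replicate 2 (right bar), cytosolic genes left of mitochondrial genes. Qars, Vars, Ears2 and Vars2 have less than 50% on protein-coding transcripts in both libraries.

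With protein-coding transcripts alone, the cytosolic median in replicates 1 and 2 was 25.005 and 33.6 TPM. The mitochondrial genes without Lars2 had medians of 8.06 and 6.80 TPM on that scale. The cytosolic gene was then higher in both libraries for 13 of 16 amino acids. Tyrosine joined leucine and threonine as an exception, with 20.1 and 17.0 TPM for Yars and 21.0 and 25.5 TPM for Yars2.

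For Kars, splicing is known from human cells to decide whether the cytosolic or the mitochondrial form is made. Kars-201, with a coding sequence of 1785 bases, held 80.3% of its TPM in replicate 1 and 88.7% in replicate 2. The rest fell on Kars-203 in replicate 1, at 13.1 TPM, and on Kars-202 in replicate 2, at 9.07 TPM, both with a coding sequence of 1872 bases. The longer coding sequence was thus at 19.7% and 11.3% of the gene, and the annotation used does not name which form it encodes. In Tars2 the leading transcript changed between libraries: Tars2-204 held 49.4% in replicate 1 and 4.98% in replicate 2, while Tars2-201 held 21.5% and 82.1%. Such shares are estimates from short reads, and the leads of Hars2, Ears2 and Vars2 also differed between libraries.

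Several members share sequence with a neighbour, and whether the authors' counting used strand is not given in the sources used here. Iars2 overlaps Rab3gap2 on the opposite strand over 2034 transcribed bases, and Rab3gap2 stood at 16.7 and 25.95 TPM, close to Iars2 itself. Hars and Hars2 start head to head and overlap by 195 bases, and Cars2 overlaps Naxd, at 11.2 and 24.5 TPM, by 217 bases. The 3′ end of Aars covers 1326 bases of Exosc6 on the same strand, and Exosc6 was not found by identifier among the genes quantified. Iars has a processed pseudogene, Gm4849, which matches it at 96.0% over 1656 bases and stood at 0.04 and 0.11 TPM. The levels of Iars2, Hars2 and Cars2 are uncertain to the extent that such reads were divided. The level of Aars is uncertain to the extent that it holds reads from Exosc6, which was not tested.

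Cytosolic synthetase levels and codon use showed almost no rank correlation. The share of codons for each amino acid was computed over 20994 nuclear coding sequences weighted by TPM, with Lars2 left out of the weighting. Eprs was set against glutamate and proline together, and Farsa and Farsb were averaged. Across the 19 resulting points Spearman's rho was -0.05, a description across amino acids in which both measures come from the same libraries. It was -0.12 in replicate 1 and -0.05 in replicate 2. With synthetase levels from protein-coding transcripts only, and codon weights still on gene-level TPM, it was 0.16. Leucine was the most used single amino acid at 9.02% of codons, and its enzyme Lars had 2.53 TPM per percent of codons, the lowest on gene-level TPM and, with coding transcripts only, next to Aars at 2.52. Glutamine took 4.58%, and Qars had 31.4 TPM per percent on gene-level TPM but 3.75 with coding transcripts only, or 7.12 with its unmatched transcript added. Hars, with a single transcript, had 29.9 on both scales, the highest with coding transcripts only.

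**Figure D5:**
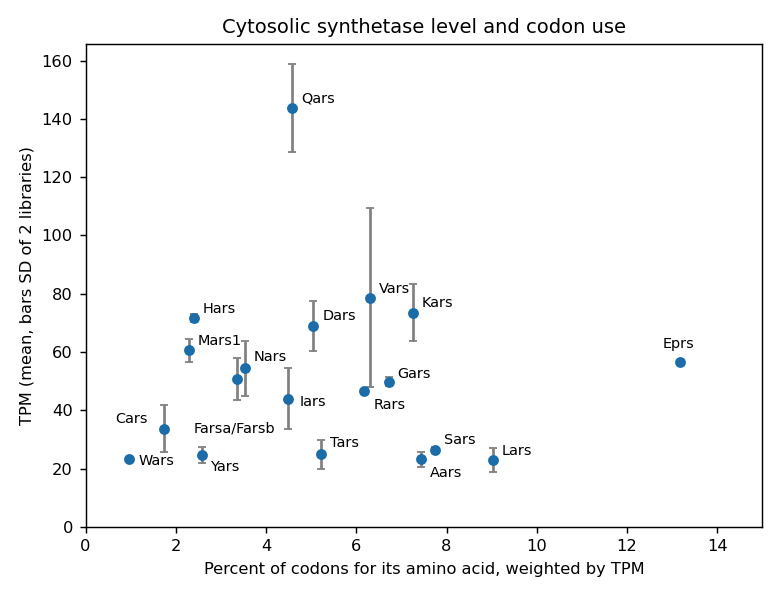
Mean TPM of each cytosolic synthetase (bars, SD of 2 libraries) against the TPM-weighted percent of codons for its amino acid. Lars, at 9.02% of codons and 22.8 TPM, and Qars, at 4.58% and 144 TPM, lie at opposite ends of the gene-level axis; with protein-coding transcripts only, Qars is at 17.2 TPM, below Lars, or at 32.6 TPM with its unmatched transcript. Spearman's rho over the 19 points is -0.05, and 0.16 with protein-coding transcripts only.

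In mitochondria, the same comparison with the 13 protein genes of the mitochondrial genome gave a rho of 0.31 over 16 amino acids and 0.16 over 15 without Lars2. Leucine was again the most used, at 14.8% of mitochondrial codons. Isoleucine and threonine followed at 9.80% and 8.18%, and their enzymes Iars2 and Tars2 were among the highest mitochondrial genes. Methionine and proline took 6.36% and 5.74%, and on gene-level TPM their enzymes Mars2 and Pars2 were the lowest, at 4.37 ± 0.339 and 3.56 ± 0.990 TPM (SD, n = 2), beside Ears2 at 4.47 ± 0.325 TPM (SD, n = 2). On protein-coding transcripts Ears2 and Vars2 were lower, and in CPM the long Mars2 averaged 36.3, above most mitochondrial genes.

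Genes that act next to the synthetases were expressed as well. Of 10 genes for tRNA partners and proofreading, 7 stood at 10 TPM or more in both libraries, beside 24.7% of all protein-coding nuclear genes. Of those not described singly, Prorsd1, Elac2 and Dtd1 averaged between 19.2 and 28.1 TPM, and Pstk, Sepsecs and Dtd2 between 4.02 and 9.62 TPM. Aarsd1, which clears serine wrongly joined to alanine tRNA, had 30.9 and 50.9 TPM, and Trnt1, which adds the CCA end that synthetases charge, had 35.7 and 27.6 TPM. Xpot, the exporter of tRNA from the nucleus, had 23.7 and 22.4 TPM. Tarsl2, a second cytosolic threonyl enzyme that is not among the 36, had 16.9 and 16.1 TPM beside 21.4 and 28.2 TPM for Tars. Of the 4 genes of the amino acid response, Atf4 had 58.8 and 87.7 TPM and its target Asns, asparagine synthetase, had 108 and 101 TPM. The kinase genes were lower, with Eif2ak1, the heme-regulated kinase of red cell precursors, at 17.6 and 22.0 TPM and Eif2ak4, the sensor of uncharged tRNA, at 8.74 and 8.54 TPM.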

How the data were processed

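Total RNA above 200 bases was sequenced in 2 libraries of 100 MEP cells each, per the labels. The authors quantified genes and transcripts against mm10 and GENCODE M4, per the README beside the tables. No source used here names the aligner or the quantifier version. The deposited expected counts need not be whole and were rounded for scaling factors. The deposited TPM are scaled by effective length to a fixed sum that includes ribosomal RNA, so the level of every other gene falls as ribosomal RNA rises. Transcript shares in percent, FPKM values, a score column (posterior SD) and signal columns (interval bounds) were also deposited by the authors; the last 3 were not used.

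Names, transcript types and coordinates came from GENCODE M21 (GRCm38) by gene identifier without version, which matched 42462 of 43346 genes. Both samples form 1 group by cell type label, with replicate numbers from the labels. The libraries were not duplicates: chi-square per degree of freedom was 96.7 over 10248 genes with at least 50 counts. The members and lists were chosen with earlier results of these data known. All 36 members were named. Of the related genes planned, 1 is not reported here. No p-value was computed. All 36 members passed the filter of a mean of 1 TPM. Differences use log2(TPM + 1), which understates changes of low genes; called means past 2-fold. Intervals are exact Clopper-Pearson at 95% on rounded counts and cover counting error only. Codon use came from GENCODE M21 coding sequences, in place of the RefSeq proteins first planned; protein motifs and protein identity were not computed. TMM factors (edgeR 4.0.16) and size factors (DESeq2 1.42.0, R 4.3.3) served as alternatives. Alignments used blastn 2.17.0. Other steps ran in Python 3.11.15 with pandas 2.3.3, scipy 1.17.1, numpy 2.4.6 and matplotlib 3.10.9. The difference step was tested on simulated data.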

Additional observations from a re-analysis of the deposited data

Results flagged for a closer look

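The tables also hold 26248 tRNA gene features, taken by their numeric identifiers, which no comparison above uses. Summed over all of these features, expected counts came to 4 and 12 in replicates 1 and 2. The limit of 3 counts that a count of 0 allows holds for a single feature, so it cannot be set against this sum. By the labels the libraries were made from RNA above 200 bases.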

How the results depend on the processing

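Medians and ratios in this section include Lars2 unless stated. The ratio of cytosolic to mitochondrial medians, 3.88 on the means of both libraries, ranged from 3.24 with protein-coding transcripts only to 4.34 as CPM. Without Lars2, the coding-only medians were 25.005 against 8.06 TPM in replicate 1 and 33.6 against 6.80 TPM in replicate 2. The cytosolic median of 48.2 TPM became 113 with TPM rescaled over protein-coding nuclear genes, 74.2 as CPM with TMM factors, 46.6 with posterior means and 29.9 with protein-coding transcripts only, an alternative chosen after seeing the data. The mitochondrial median of 12.4 TPM became 28.8, 17.1 and 9.21 with the rescaling, CPM and coding transcripts. The median difference between libraries of -0.21 turned to 0.032 as CPM with TMM factors and to 0.031 with DESeq2 size factors; the cause was not tested. The number of members past 2-fold, 1, became 0 without Lars2 and 2 with coding transcripts. The added member, Vars, had 17.9 TPM in replicate 2 on the short transcript Vars-207, which was at 0 in replicate 1. With a single library, the cytosolic median was 47.9 to 49.3, the mitochondrial median 10.6 to 14.1, the ratio 3.51 to 4.51, the amino acids with a higher cytosolic gene 14 to 15, and the members at 10 TPM 30 in either library. Of single members, all 36 moved beyond their SD with the rescaling, 33 as CPM, 17 with coding transcripts and 6 with posterior means. At minimums of 5 and 20 TPM, 32 and 22 members passed in both libraries, against 29 at 10 TPM. The rho with cytosolic codon use lay between -0.08 and -0.05 under the other weights and turned to 0.16 with coding transcripts only, also chosen after seeing the data. With the unmatched Qars transcript counted as coding, Qars averaged 32.6 TPM and the coding-only cytosolic median was 32.3 TPM. No paired analysis was possible because the series has only 1 group. Depth limits the low mitochondrial genes most, with Pars2 at 123 counts in replicate 1.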
